A study of Mus musculus with 3 samples.

Results

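The mouse genes Wwox, Fhit, Macrod2, Immp2l, Lrp1b, Csmd1, Csmd3 and Dmd are examined here, a set of very long genes of which several lie at common fragile sites in human. They were chosen by name, not by a measured value, but with earlier results of these data known. They are 8 of 21676 protein-coding genes with a value in the table. For each gene, the bins of 10 kb that overlap its RefSeq body by at least 1 bp were taken, which gave 1284 of 264399 bins. All 1284 had a value in every library. The genes are 913 to 2390.4 kb long. Dmd ranked 1, Lrp1b 5 and Macrod2 6 in length among protein-coding genes of the annotation, and the shortest, Wwox, ranked 72. The data hold no measure of breakage, so that the word fragile is background and was not checked.

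5-Hydroxymethylcytosine (5hmC) was measured in genomic DNA of mouse cerebellum, with 1 library in each of 3 groups. These were cerebellum after chronic sleep deprivation, profiled by DDD-seq, cerebellum labelled normal/control, profiled by ACE-seq, and cerebellum labelled normal/control, profiled by DDD-seq. DDD-seq rests on deamination of double-stranded DNA: a sugar is put on 5hmC, the deaminase SsdAcat acts on the rest, and cytosines that stay cytosine are read as 5hmC. ACE-seq is known to use an APOBEC deaminase, but the labels give its library the same protocol text. Strain, age, sex, the length of the sleep deprivation and the number of animals are not given in the sources used here, and both DDD-seq columns may pool runs or libraries. Levels are the deposited fractions times 100, in percent, and differences are in percentage points. With 1 library a group there is no replicate error and no p-value. An SE is the scatter between bins along a gene, not between animals, and depth is unknown. DNA of all cells was measured together, so that high 5hmC in few cells and low 5hmC in many cannot be told apart.

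5hmC is made from 5-methylcytosine by TET enzymes and is abundant in neurons, where it is known to lie over the bodies of transcribed genes. Common fragile sites are regions that break under replication stress, and many of them lie inside very long genes that replicate late. Wwox encodes an oxidoreductase with WW domains whose loss causes ataxia and epilepsy, and Fhit a hydrolase of dinucleoside polyphosphates; both are known as tumour suppressors. Macrod2 encodes an enzyme that removes ADP-ribose from proteins, and Immp2l a subunit of a peptidase of the inner mitochondrial membrane. Lrp1b is an endocytic receptor of the LDL receptor family. Csmd1 and Csmd3 are large membrane proteins with CUB and Sushi domains, the first of which is known to restrain complement. Dmd encodes dystrophin, which links the cytoskeleton to the membrane and is found at inhibitory synapses of Purkinje cells. Its gene has several inner promoters that give shorter dystrophins.

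The genes fell into a low and a high end in each library. Csmd3, Lrp1b and Macrod2 were the highest of the set in all 3 libraries and Fhit and Wwox the lowest. The median over the 8 genes was 1.95% in the sleep-deprived library, 1.86% by ACE-seq and 1.92% in the DDD-seq control. Over the 1092 protein-coding genes of at least 20 bins it was 1.73% in the sleep-deprived library, 1.69% by ACE-seq and 1.74% in the DDD-seq control, and over the 238 of at least 50 bins it was 1.83% in the sleep-deprived library, 1.77% by ACE-seq and 1.83% in the DDD-seq control. The levels of the set reached from below to above these medians.

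Among the enzyme genes, Wwox (RefSeq gene ID 80707, chr8:114439635-115352712) had 1.63% ± 0.043 in the sleep-deprived library, 1.595% ± 0.043 by ACE-seq and 1.62% ± 0.044 in the DDD-seq control (SE over 93 bins). Fhit (RefSeq gene ID 14198, chr14:9550092-11162061) had 1.46% ± 0.048 in the sleep-deprived library, 1.41% ± 0.048 by ACE-seq and 1.41% ± 0.047 in the DDD-seq control (162 bins). Both lay below the median of long genes, with percentiles among genes of at least 20 bins of 42.4 in the sleep-deprived library, 42.9 by ACE-seq and 41.6 in the DDD-seq control for Wwox and of 25.5 in the sleep-deprived library, 26.6 by ACE-seq and 21.1 in the DDD-seq control for Fhit. Macrod2 (RefSeq gene ID 72899, chr2:140395303-142392966) had 2.302% ± 0.066 in the sleep-deprived library, 2.28% ± 0.071 by ACE-seq and 2.36% ± 0.076 in the DDD-seq control (201 bins). Immp2l (RefSeq gene ID 93757, chr12:41024061-41955588) had 1.98% ± 0.086 in the sleep-deprived library, 1.82% ± 0.087 by ACE-seq and 1.88% ± 0.093 in the DDD-seq control (94 bins). Macrod2 had percentiles of 77.1 in the sleep-deprived library, 78.02 by ACE-seq and 78.1 in the DDD-seq control. Those of Immp2l were 64.3 in the sleep-deprived library, 58.3 by ACE-seq and 59.2 in the DDD-seq control, so that the enzyme genes stood on both sides of the median.

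Of the genes for membrane proteins, the endocytic receptor gene Lrp1b (RefSeq gene ID 94217, chr2:40595290-42653598) had 2.47% ± 0.086 in the sleep-deprived library, 2.23% ± 0.073 by ACE-seq and 2.42% ± 0.079 in the DDD-seq control (207 bins). Csmd1 (RefSeq gene ID 94109, chr8:15892538-17535385) had 1.77% ± 0.052 in the sleep-deprived library, 1.71% ± 0.054 by ACE-seq and 1.795% ± 0.054 in the DDD-seq control (165 bins). Csmd3 (RefSeq gene ID 239420, chr15:47580638-48792558) had 2.59% ± 0.13 in the sleep-deprived library, 2.48% ± 0.13 by ACE-seq and 2.62% ± 0.16 in the DDD-seq control (122 bins). The paralogs Csmd1 and Csmd3 thus stood apart, Csmd1 near the middle of long genes and Csmd3 at percentiles of 83.9 in the sleep-deprived library, 82.3 by ACE-seq and 84.1 in the DDD-seq control. Dmd, the dystrophin gene (RefSeq gene ID 13405, chrX:82814664-85205050), had 1.92% ± 0.073 in the sleep-deprived library, 1.905% ± 0.085 by ACE-seq and 1.96% ± 0.089 in the DDD-seq control (240 bins). On chromosome X, Dmd ranked 16 in the sleep-deprived library, 20 by ACE-seq and 17 in the DDD-seq control of 49 genes of at least 20 bins. Values of 0 were listed in 8 bins of Dmd after sleep deprivation and in 15 bins both by ACE-seq and in the DDD-seq control. The other genes, all autosomal, held 1 such bin at most in any library.

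In order of level, neighbours often could not be separated. By ACE-seq, Csmd3, Macrod2 and Lrp1b followed each other with gaps under 2 SE, as did Dmd, Immp2l, Csmd1 and Wwox. In the DDD-seq control, the gap between Macrod2 and Dmd (0.395 ± 0.12 points), that between Csmd1 and Wwox (0.177 ± 0.069) and that between Wwox and Fhit (0.204 ± 0.064) were over 2 SE, and the other gaps were not. In the sleep-deprived library the gaps over 2 SE were those below Macrod2, Csmd1 and Wwox. Scatter between bins was wide. Single bins of Csmd3 ranged from 0.464% to 13.2% in the sleep-deprived library, from 0.499% to 9.75% by ACE-seq and from 0.222% to 13.6% in the DDD-seq control. Those of Wwox ranged only from 0.824% to 3.03% in the DDD-seq control.

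**Figure D1:**
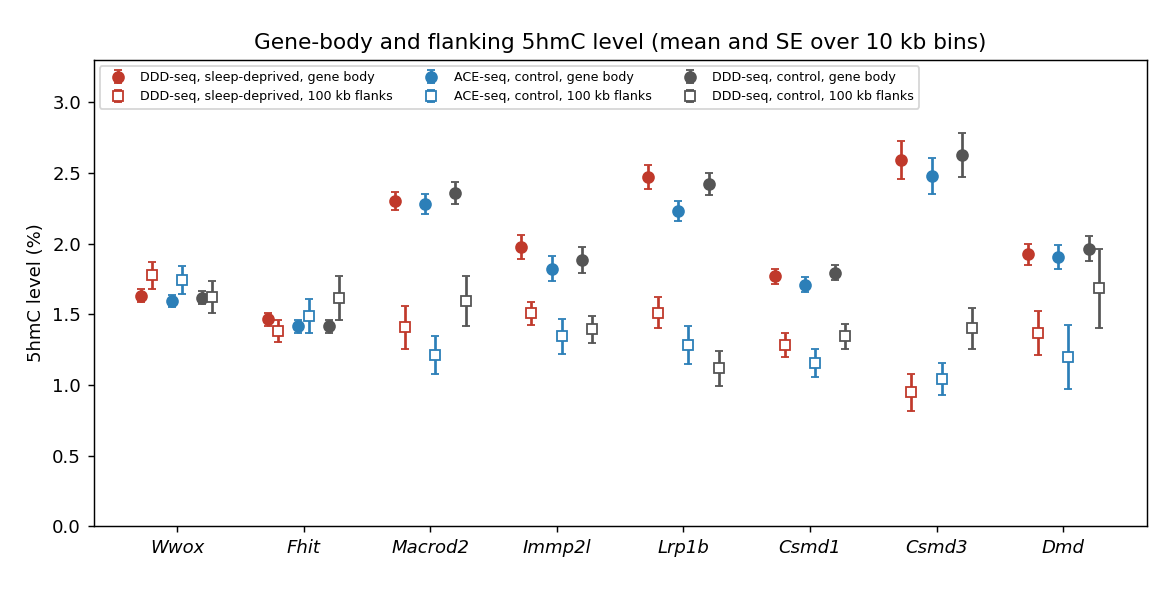
Mean 5hmC level in percent (vertical axis) of each gene body (filled circles) and of its flanks of 100 kb on each side (open squares) in the sleep-deprived DDD-seq, ACE-seq control and DDD-seq control libraries; bars are SE over 10 kb bins. The bodies of Wwox and Fhit lie at about the level of their flanks, and that of Csmd3 far above.

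The genes also differed in how far they rose above the DNA beside them. A body at least 25% above its flanks was found for 6 of the 8 genes in the sleep-deprived library, 6 of 8 by ACE-seq and 5 of 8 in the DDD-seq control. Among genes of at least 20 bins the share was 45.3% in the sleep-deprived library, 46.6% by ACE-seq and 45.8% in the DDD-seq control. All 8 genes hold more than 50 bins. Of the 238 genes of at least 50 bins, 122 passed in the sleep-deprived library, 128 by ACE-seq and 126 in the DDD-seq control. A set of 8 genes is too small to be set apart from these shares. Macrod2, Immp2l, Lrp1b, Csmd1 and Csmd3 passed in every library. Of these, Lrp1b and Csmd3 also passed under every alternative for bins and flanks. Immp2l lost the call with 50 kb flanks in the sleep-deprived library (ratio 1.18) and by ACE-seq (1.22) and with 200 kb flanks in the DDD-seq control (1.24), and with medians over bins after sleep deprivation (1.21) and in the DDD-seq control (1.18). In the DDD-seq control Csmd1 lost it with 200 kb flanks (1.24) and with medians (1.21), and Macrod2 with flank bins over genes left out (1.21). Csmd3 had the lowest flanks in the sleep-deprived library and by ACE-seq, with 0.946% in the sleep-deprived library, 1.04% by ACE-seq and 1.399% in the DDD-seq control. The ratio of body to flank in Csmd3 was 2.74 in the sleep-deprived library, 2.38 by ACE-seq and 1.88 in the DDD-seq control. Lrp1b, the endocytic receptor gene, had flanks of 1.51% in the sleep-deprived library, 1.28% by ACE-seq and 1.12% in the DDD-seq control; its ratio was 1.64 in the sleep-deprived library, 1.74 by ACE-seq and 2.16 in the DDD-seq control. For Macrod2 the ratio was 1.64 in the sleep-deprived library, 1.88 by ACE-seq and 1.48 in the DDD-seq control. Immp2l had 1.31 in the sleep-deprived library, 1.35 by ACE-seq and 1.35 in the DDD-seq control, and Csmd1 1.38 in the sleep-deprived library, 1.48 by ACE-seq and 1.34 in the DDD-seq control, the smallest ratios among the genes that passed in every library.

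The 2 genes that did not pass in any library were Wwox and Fhit. The ratio of body to flank was 0.919 in the sleep-deprived library, 0.916 by ACE-seq and 0.997 in the DDD-seq control for Wwox. For Fhit it was 1.06 in the sleep-deprived library, 0.951 by ACE-seq and 0.876 in the DDD-seq control. The flanks of Wwox hold the genes Vat1l and Clec3a, whereas no protein-coding gene lies in those of Fhit. Dmd passed in the sleep-deprived library (1.41) and by ACE-seq (1.59) but not in the DDD-seq control (1.17), where its flanks had 1.68% ± 0.28 over 20 bins, the widest error of any flank here. This call turned with the bins used: the ratio of Dmd in the DDD-seq control was 1.35 with bins at 0 left out, 1.33 with 50 kb flanks and 1.41 with 200 kb flanks, all past 25%, and by ACE-seq it was 1.17 with 50 kb flanks. With 50 kb flanks the difference of body and flank turned from below to above 0 at Wwox, to 0.0483 points in the sleep-deprived library, 0.0339 by ACE-seq and 0.184 in the DDD-seq control. It was also above 0 in the DDD-seq control with medians over bins (0.115) and with flank bins over genes left out (0.130), and at Fhit by ACE-seq with 200 kb flanks (0.0521).

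Along the genes the level was uneven, and Dmd was higher toward its 3′ end. The gene was divided into 10 stretches of 24 bins. In the first 5 stretches, counted from the 5′ end, Dmd had 1.204 to 1.81% in the sleep-deprived library, 1.29 to 1.64% by ACE-seq and 1.32 to 1.83% in the DDD-seq control. In the last 5 it had 2.29 to 2.51% in the sleep-deprived library, 1.996 to 2.58% by ACE-seq and 2.06 to 2.92% in the DDD-seq control, so that the ranges did not overlap in any library. For a comparison within each gene, bodies were then cut at the middle bin, a division made after the values were seen. The 3′ part of Dmd had 2.41% in the sleep-deprived library, 2.32% by ACE-seq and 2.48% in the DDD-seq control, and the 5′ part 1.44% in the sleep-deprived library, 1.49% by ACE-seq and 1.45% in the DDD-seq control.

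Lrp1b, Csmd1 and Csmd3 were also higher in the part of higher coordinates. Their strand is not in the sources used here, so that this part cannot be named 5′ or 3′. Whether they run in the same direction as Dmd is therefore not known here. The higher-coordinate part of Lrp1b had 2.79% in the sleep-deprived library, 2.55% by ACE-seq and 2.78% in the DDD-seq control, and the lower-coordinate part 2.14% in the sleep-deprived library, 1.897% by ACE-seq and 2.05% in the DDD-seq control. In Csmd3 the higher-coordinate part had 2.99% in the sleep-deprived library, 2.81% by ACE-seq and 3.18% in the DDD-seq control, and the lower-coordinate part 2.19% in the sleep-deprived library, 2.14% by ACE-seq and 2.07% in the DDD-seq control. Csmd1 differed between its parts by 0.49 ± 0.10 points in the sleep-deprived library, 0.43 ± 0.10 by ACE-seq and 0.39 ± 0.10 in the DDD-seq control, and its last whole window was its highest in every library. That window (chr8:17390001-17490000) lies wholly inside C030002A05Rik, a gene that overlaps Csmd1 and is described below. The difference between the parts without the shared bins is not given here. Wwox ran the other way, with a difference of higher and lower part of -0.27 ± 0.08 points in the sleep-deprived library, -0.12 ± 0.09 by ACE-seq and -0.24 ± 0.08 in the DDD-seq control, of which the ACE-seq value was under 2 SE. Fhit and Immp2l showed differences under 2 SE in every library, and Macrod2 was past 2 SE in the DDD-seq control alone, with 0.33 ± 0.15 points.

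A difference between the parts of at least 0.5 points was found for 3 of the 8 genes in each library (Lrp1b, Dmd and Csmd3). Among the 238 genes of at least 50 bins the share was 27.7% in the sleep-deprived library, 27.3% by ACE-seq and 29.4% in the DDD-seq control, so that this unevenness was common among long genes. The difference in Csmd3 was 0.80 points in the sleep-deprived library, 0.67 by ACE-seq and 1.11 in the DDD-seq control. Without its single highest bin it was 0.64 points in the sleep-deprived library, 0.55 by ACE-seq and 0.94 in the DDD-seq control.

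**Figure D2:**
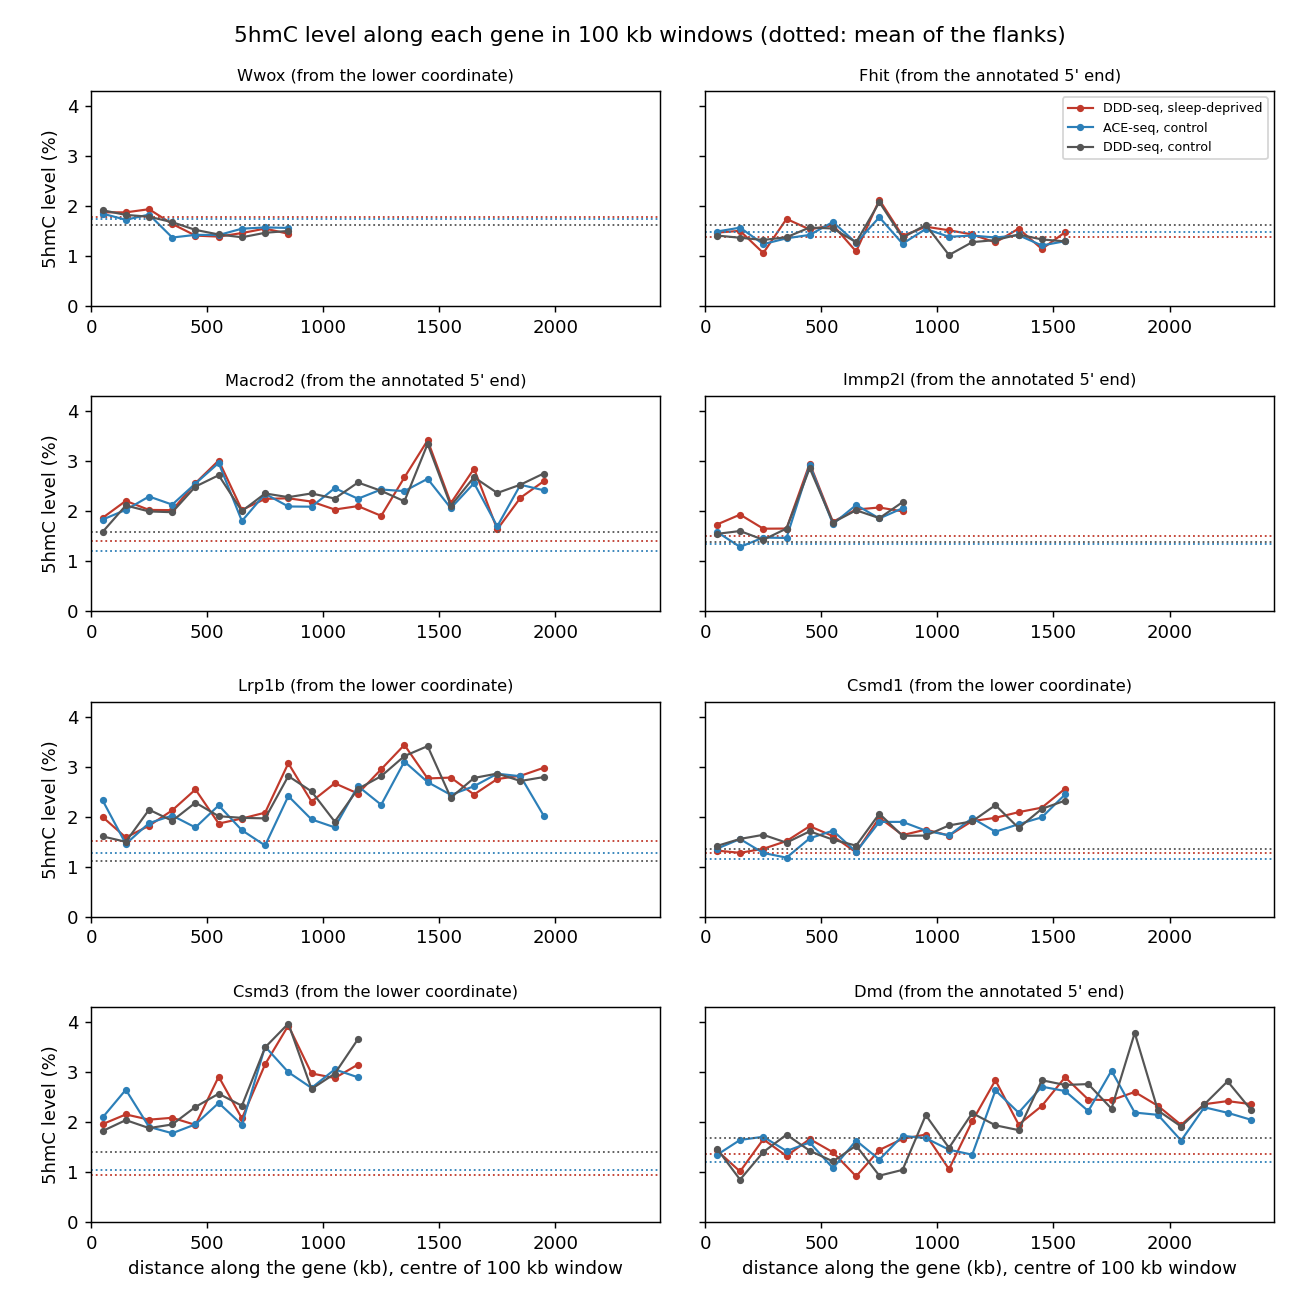
5hmC level in percent (vertical axis) in 100 kb windows of 10 bins along each gene (horizontal axis, kb from the annotated 5′ end or from the lower coordinate), 1 line per library; dotted lines are the mean of the flanks. Dmd rises from its 5′ end, and Lrp1b, Csmd1 and Csmd3 rise from the lower coordinate, which may be either end of the gene. Immp2l has 1 peak, and Wwox and Fhit stay near their flanks.

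**Figure D3:**
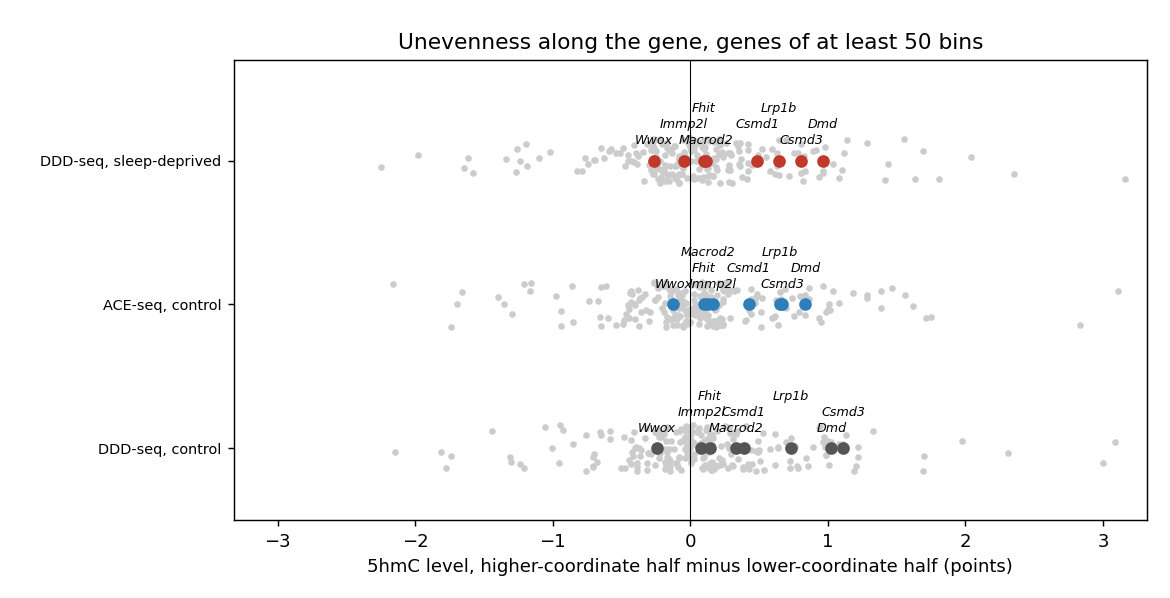
Difference in 5hmC level between the higher-coordinate and the lower-coordinate part of each gene (horizontal axis, percentage points) in each library; grey points are all genes of at least 50 bins, spread vertically only for view, and coloured points the named genes. Dmd, Csmd3 and Lrp1b lie above 0.5 points in every library, among many other genes.

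The highest 100 kb window was the same one in all libraries in Fhit, Immp2l and Csmd1. That of Immp2l (chr12:41420001-41520000) had 2.96% in the sleep-deprived library, 2.93% by ACE-seq and 2.86% in the DDD-seq control, the highest of 9 windows. It holds Lrrn3 (chr12:41451668-41486057), a gene nested in Immp2l that encodes a neuronal membrane protein with leucine-rich repeats. The 4 bins over Lrrn3 had 3.32% ± 0.55 in the sleep-deprived library, 3.53% ± 0.41 by ACE-seq and 3.53% ± 0.52 in the DDD-seq control. The other 90 bins of Immp2l had 1.92% ± 0.082 in the sleep-deprived library, 1.75% ± 0.080 by ACE-seq and 1.81% ± 0.087 in the DDD-seq control. Bins just below Lrrn3 were high as well, with 4.07% in the sleep-deprived library, 4.01% by ACE-seq and 3.76% in the DDD-seq control at chr12:41430001-41440000. The level returned to 1.54% in the sleep-deprived library, 1.69% by ACE-seq and 1.32% in the DDD-seq control in the bin after Lrrn3.

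Other nested genes gave less. Flrt3, which encodes an adhesion ligand of latrophilins, lies in Macrod2 (chr2:140658198-140671476), and its 3 bins had 2.93% ± 0.92 in the sleep-deprived library, 3.01% ± 0.72 by ACE-seq and 2.902% ± 0.84 in the DDD-seq control. The remaining bins of Macrod2 had 2.29% in the sleep-deprived library, 2.27% by ACE-seq and 2.35% in the DDD-seq control, within 1 SE of these values or close to it. C030002A05Rik (chr8:17353634-17492395) overlaps the high end of Csmd1, and the 15 shared bins had 2.47% ± 0.23 in the sleep-deprived library, 2.32% ± 0.21 by ACE-seq and 2.26% ± 0.19 in the DDD-seq control. The rest of Csmd1 had 1.698% in the sleep-deprived library, 1.65% by ACE-seq and 1.75% in the DDD-seq control. The genes inside Dmd cover 1 or 2 bins each. Tsga8 had 0.962% in the sleep-deprived library, 1.04% by ACE-seq and 0.699% in the DDD-seq control, and Gm46696 0.995% in the sleep-deprived library, 1.03% by ACE-seq and 1.001% in the DDD-seq control, both below the mean of Dmd. Gm52441 had 1.395% in the sleep-deprived library, 3.15% by ACE-seq and 1.295% in the DDD-seq control, without one direction. No protein-coding gene overlaps Wwox, Fhit, Lrp1b or Csmd3.

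The highest bin of Csmd3 (chr15:48410001-48420000) had 13.2% in the sleep-deprived library, 9.75% by ACE-seq and 13.6% in the DDD-seq control. Of 239288 autosomal bins, 12 were at least as high in the sleep-deprived library, 77 by ACE-seq and 11 in the DDD-seq control, and 28 reached 9.75% in all libraries. Both neighbouring bins lay between 1.65% and 2.61% in every library, so the peak was confined to a single bin. How much of that bin it covers cannot be seen from a bin mean. Without it Csmd3 had 2.51% in the sleep-deprived library, 2.42% by ACE-seq and 2.53% in the DDD-seq control. In Lrp1b the highest bin (chr2:41910001-41920000) had 8.696% in the sleep-deprived library, 6.93% by ACE-seq and 5.47% in the DDD-seq control, and in Macrod2 (chr2:142340001-142350000) 5.17% in the sleep-deprived library, 5.75% by ACE-seq and 5.19% in the DDD-seq control. In Dmd (chrX:84330001-84340000) it had 6.05% in the sleep-deprived library, 7.78% by ACE-seq and 10% in the DDD-seq control. These bins were picked for their values, which are a description. In Lrp1b and Dmd the libraries differed widely at this bin, whereas in Macrod2 they did not.

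Annotated promoters were found for 4 of the genes in RefSeq (GRCm38.p6), with 2 distinct starts in Fhit and Dmd. They are shown because levels were compared on both sides of these starts, and 5hmC in mammals lies mostly at CG. The 250 bases before each start are given 5′ to 3′, with CG in capitals.
Fhit, outer start (chr14:11162036-11162285, strand -): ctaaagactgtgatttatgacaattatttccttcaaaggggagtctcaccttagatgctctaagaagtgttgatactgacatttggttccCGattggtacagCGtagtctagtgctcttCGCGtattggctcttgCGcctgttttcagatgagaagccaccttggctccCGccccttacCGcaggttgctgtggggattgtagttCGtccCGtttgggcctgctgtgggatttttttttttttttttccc
Fhit, inner start (chr14:10453459-10453708, strand -): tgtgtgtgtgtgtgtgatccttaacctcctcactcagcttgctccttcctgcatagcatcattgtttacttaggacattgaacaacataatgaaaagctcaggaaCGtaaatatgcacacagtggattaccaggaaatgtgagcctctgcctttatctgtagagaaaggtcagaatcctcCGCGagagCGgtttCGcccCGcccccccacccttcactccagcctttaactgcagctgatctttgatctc
Macrod2 (chr2:140395180-140395429, strand +): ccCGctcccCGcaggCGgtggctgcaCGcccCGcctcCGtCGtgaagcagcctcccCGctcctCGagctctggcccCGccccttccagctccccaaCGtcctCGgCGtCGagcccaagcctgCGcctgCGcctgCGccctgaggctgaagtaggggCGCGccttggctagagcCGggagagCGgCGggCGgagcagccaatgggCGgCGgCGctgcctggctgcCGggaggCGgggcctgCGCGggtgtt
Immp2l (chr12:41023840-41024089, strand +): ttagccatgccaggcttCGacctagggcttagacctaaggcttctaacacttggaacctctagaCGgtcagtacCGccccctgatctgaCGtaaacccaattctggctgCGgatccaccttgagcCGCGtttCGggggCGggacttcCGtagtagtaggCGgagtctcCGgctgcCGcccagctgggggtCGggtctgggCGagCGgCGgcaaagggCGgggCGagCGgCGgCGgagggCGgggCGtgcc
Dmd, start near the 5′ end (chrX:82948620-82948869, strand +): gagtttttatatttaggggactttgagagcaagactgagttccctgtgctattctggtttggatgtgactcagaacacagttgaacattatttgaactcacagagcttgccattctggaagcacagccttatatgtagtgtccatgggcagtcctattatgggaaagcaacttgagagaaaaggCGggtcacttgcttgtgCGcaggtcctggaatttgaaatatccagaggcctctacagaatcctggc
Dmd, start near the 3′ end (chrX:85048045-85048294, strand +): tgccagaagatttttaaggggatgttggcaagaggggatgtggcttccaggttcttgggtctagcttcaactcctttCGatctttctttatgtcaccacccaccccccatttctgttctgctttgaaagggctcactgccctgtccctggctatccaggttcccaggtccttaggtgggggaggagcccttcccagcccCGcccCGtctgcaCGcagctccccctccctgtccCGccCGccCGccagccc

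The motif CG, which reads the same on both strands and overlaps no other motif here, was counted in these windows. Macrod2 had 30 and Immp2l 24, numbers reached by 5.94% and 11.98% of 32851 promoter windows of the same length, of which 92.1% held CG at all and whose median was 6. The outer and inner starts of Fhit had 9 and 6. The start of Dmd near the 5′ end had 2 and that near the 3′ end 7. The 10 kb bin that holds the start had 1.52% in the sleep-deprived library, 1.94% by ACE-seq and 1.61% in the DDD-seq control at Macrod2 and 1.35% in the sleep-deprived library, 1.76% by ACE-seq and 1.45% in the DDD-seq control at Immp2l, below the gene body in each library. At the Dmd start near the 5′ end the bin had 1.32% in the sleep-deprived library and 1.69% by ACE-seq and was listed at 0 in the DDD-seq control, and at that near the 3′ end 1.76% in the sleep-deprived library, 1.96% by ACE-seq and 2.26% in the DDD-seq control. A bin is far longer than a promoter, so that these levels are not promoter levels.

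Fhit differed in level between the 100 kb on each side of its inner start. The 100 kb after and before it, in the direction of the gene and both inside Fhit, had 2.21% ± 0.41 after and 0.993% ± 0.099 before in the sleep-deprived library, 1.79% ± 0.32 after and 1.09% ± 0.14 before by ACE-seq, and 2.06% ± 0.34 after and 1.26% ± 0.17 before in the DDD-seq control. The stretch after it overlaps the highest 100 kb window of Fhit, which had 2.12% in the sleep-deprived library, 1.78% by ACE-seq and 2.08% in the DDD-seq control, and holds its highest bin (chr14:10400001-10410000) with 5.09% in the sleep-deprived library, 3.27% by ACE-seq and 4.48% in the DDD-seq control. That bin and its neighbours were centred 38.5 to 58.5 kb after the inner start, not at it. The bin next after this start (chr14:10440001-10450000) had 1.46% in the sleep-deprived library, 1.77% by ACE-seq and 1.54% in the DDD-seq control. At the outer start there was 1.599% ± 0.22 after and 1.54% ± 0.13 before in the sleep-deprived library, 1.41% ± 0.20 after and 1.48% ± 0.19 before by ACE-seq, and 1.57% ± 0.21 after and 1.68% ± 0.16 before in the DDD-seq control, where the order was not the same in every library. Macrod2 was higher inside the gene, with 2.09% ± 0.32 after and 1.32% ± 0.26 before in the sleep-deprived library, 1.85% ± 0.19 after and 1.09% ± 0.13 before by ACE-seq, and 1.75% ± 0.27 after and 1.2455% ± 0.13 before in the DDD-seq control.

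At the remaining starts the differences were smaller. Immp2l had 1.73% ± 0.11 after and 1.55% ± 0.12 before in the sleep-deprived library, 1.53% ± 0.13 after and 1.22% ± 0.11 before by ACE-seq, and 1.55% ± 0.17 after and 1.41% ± 0.12 before in the DDD-seq control. The Dmd start near the 5′ end had 1.13% ± 0.14 after and 1.08% ± 0.19 before in the sleep-deprived library, 1.898% ± 0.29 after and 1.51% ± 0.31 before by ACE-seq, and 1.45% ± 0.38 after and 1.17% ± 0.22 before in the DDD-seq control. The Dmd start near the 3′ end had 2.36% ± 0.25 after and 2.01% ± 0.15 before in the sleep-deprived library, 2.45% ± 0.35 after and 2.12% ± 0.40 before by ACE-seq, and 2.66% ± 0.19 after and 2.48% ± 0.39 before in the DDD-seq control, so that the gene was already at its higher level there. An excess of at least 25% after the start was reached by 2 of 6 starts in the sleep-deprived library, 4 of 6 by ACE-seq and 2 of 6 in the DDD-seq control. Among 1123 starts of genes of at least 20 bins the share was 44.2% in the sleep-deprived library, 45.1% by ACE-seq and 44.3% in the DDD-seq control. So few starts cannot be set apart from that share, and the start of Macrod2 and the inner start of Fhit were those that passed in every library.

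**Figure D4:**
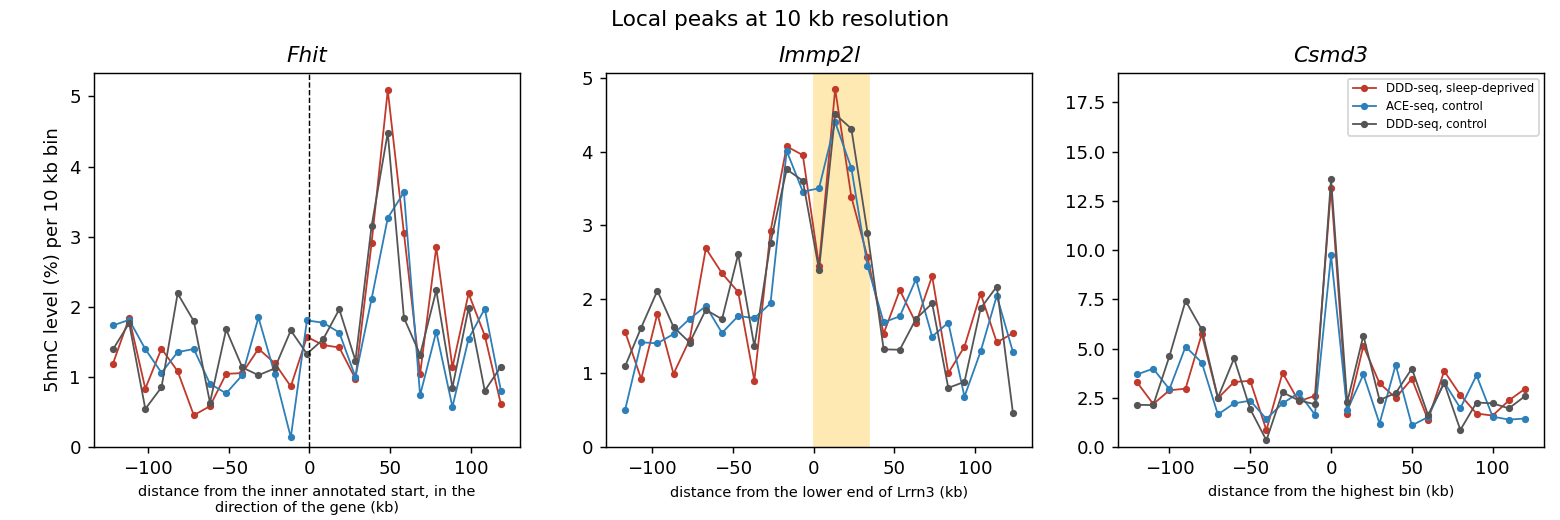
5hmC level in percent per 10 kb bin (vertical axes, which differ between panels) against distance in kb from the inner start of Fhit (dashed line; positive is downstream), from the lower end of Lrrn3 inside Immp2l (shaded) and from the highest bin of Csmd3, 1 line per library. The peaks after the Fhit start, over and just below Lrrn3 and in 1 bin of Csmd3 appear in all 3 libraries.

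The sleep-deprived library was next set against the DDD-seq control, which asks whether 5hmC over these genes differed after chronic sleep deprivation. None of the 8 genes differed by 0.2 points or more in either direction, where 2.93% of genes of at least 20 bins were higher by that much and 3.39% lower. With so low a background, none among 8 is a share near it. Subtracting the control level from that after sleep deprivation gave 0.09 ± 0.06 points at Immp2l, 0.05 ± 0.08 at Lrp1b, 0.05 ± 0.05 at Fhit and 0.01 ± 0.04 at Wwox. The result was -0.06 ± 0.06 at Macrod2, -0.04 ± 0.09 at Dmd, -0.03 ± 0.10 at Csmd3 and -0.03 ± 0.05 at Csmd1. The size was at most 1.43 times its SE at any of them, and 4 genes were higher and 4 lower; with medians over bins Wwox turned to -0.0172 points. The central 95% of genes of at least 50 bins lay between -0.14 and 0.18 points, and all the differences fell inside it.

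Single 100 kb windows were less even. Of the 102 windows of the 7 autosomal genes, 1 was higher by at least 0.5 points in the sleep-deprived library and 4 were lower, where 0.943% of autosomal windows were higher by that much and 0.922% lower. Windows of 1 gene share their source and are not independent. The windows that passed lie in Macrod2, Lrp1b and Csmd3, whose bin-to-bin differences had an SD of 0.876, 1.098 and 1.08 points. The background shares were not taken from windows of like scatter. In Lrp1b, chr2:41590001-41690000 had 2.67% in the sleep-deprived library, 1.79% by ACE-seq and 1.901% in the DDD-seq control. In Macrod2, chr2:142090001-142190000 had 1.64% in the sleep-deprived library, 1.70% by ACE-seq and 2.37% in the DDD-seq control, so that the DDD-seq control was above both other libraries. Of the 24 windows of Dmd, 3 were higher and 3 lower, where the background on chromosome X was 7.52% and 6.63%. Bin-to-bin differences in Dmd had an SD of 1.42 points, against 0.376 to 1.098 in the autosomal genes of the set. The median SD was 1.53 points over the 11 genes of at least 50 bins on chromosome X and 0.674 over autosomal ones. Such scatter was thus not particular to Dmd. The widest window difference in Dmd lay at chrX:84610001-84710000, with 2.601% in the sleep-deprived library, 2.19% by ACE-seq and 3.78% in the DDD-seq control. Whether depth moved with this scatter was not tested.

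The ACE-seq library was compared with the DDD-seq control to set the methods side by side; both comparisons use the same DDD-seq control. All 8 genes had a lower mean by ACE-seq, and the median difference over all genes of at least 20 bins was -0.0526 points. No gene of the set passed 0.2 points, where 8.88% of long genes were lower by that much and 2.29% higher. Lrp1b came nearest, with an ACE-seq minus DDD-seq difference of -0.19 ± 0.07 points, 2.72 SE below 0. Csmd3 followed with -0.15 ± 0.12, Csmd1 with -0.09 ± 0.06, Macrod2 with -0.08 ± 0.07, Immp2l with -0.06 ± 0.07 and Dmd with -0.06 ± 0.09. Wwox differed by -0.02 ± 0.04 and Fhit by -0.00101 ± 0.05. These values are set against 0, although the autosomal offset between these libraries was -0.0434 points. Of genes of at least 20 bins, 10.5% stood lower than Lrp1b. With the autosomal offset between these libraries subtracted, Wwox stood at 0.0204 points and Fhit at 0.0424, both above 0, and the other genes stayed below 0. Fhit was also above 0, at 0.00447 points, with only bins wholly inside the gene.

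By window, 2 of the 102 autosomal windows were higher by at least 0.5 points by ACE-seq and 10 were lower, against 0.863% and 1.91% of autosomal windows. Of the 10, 5 lie among the 20 windows of Lrp1b, the receptor gene. The autosomal windows that passed lie in Macrod2, Lrp1b, Csmd1 and Csmd3. Bin-to-bin differences there had an SD of 0.934, 0.992, 0.732 and 1.29 points, against 0.413 to 0.689 in Wwox, Immp2l and Fhit. These background shares were also not taken from windows of like scatter. In Dmd 4 were higher and 4 lower, against 7.71% and 9.54% of windows on chromosome X. Across the bins of a gene, Pearson's r with the DDD-seq control ranged from 0.382 at Dmd to 0.786 at Csmd3 for the sleep-deprived library. For ACE-seq it ranged from 0.342 at Fhit to 0.729 at Immp2l. The medians over genes of at least 50 bins were 0.575 for the sleep-deprived library and 0.532 for ACE-seq. Over 100 kb windows r was 0.685 to 0.935 for the sleep-deprived library and 0.643 to 0.964 for ACE-seq, over 9 to 24 windows a gene. Bins of a gene share a library and base composition, so these values describe agreement only.

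**Figure D5:**
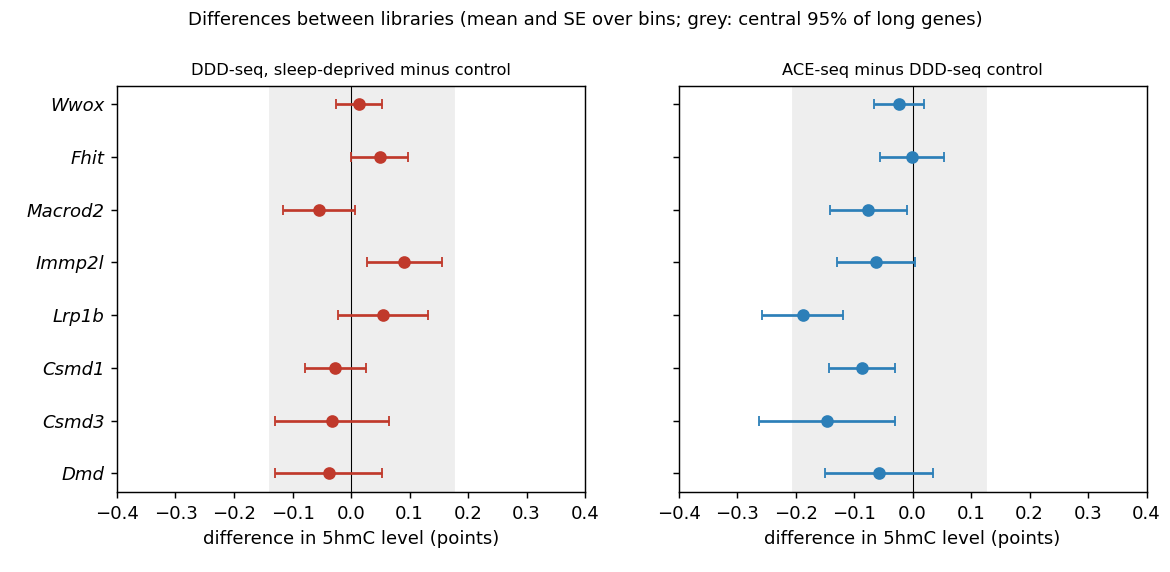
Difference in 5hmC level in percentage points (horizontal axes) of each gene, for the sleep-deprived minus the DDD-seq control library (left) and ACE-seq minus the DDD-seq control (right); points are means and bars SE over bins, and grey marks the central 95% of genes of at least 50 bins. Every gene lies inside the grey range in both panels.

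Other long genes at or near common fragile sites were taken from a list of 24, of which all matched and 22 had at least 20 bins. Their median level was 2.28% in the sleep-deprived library, 2.24% by ACE-seq and 2.22% in the DDD-seq control. Those above the median of all genes of that size numbered 19 in the sleep-deprived library, 18 by ACE-seq and 19 in the DDD-seq control. Those with a body at least 25% above the flanks numbered 16 in the sleep-deprived library, 16 by ACE-seq and 15 in the DDD-seq control. The shortest of the 22, Nbea, held 57 bins. Of the 238 genes of at least 50 bins, 122 passed it in the sleep-deprived library, 128 by ACE-seq and 126 in the DDD-seq control. The median level of those 238 was 1.83% in the sleep-deprived library, 1.77% by ACE-seq and 1.83% in the DDD-seq control. Whether the list differs from genes of like length was not tested. The lowest of the list were Prkg1, a cGMP-dependent protein kinase gene, with 1.47% in the sleep-deprived library, 1.42% by ACE-seq and 1.47% in the DDD-seq control, and Dpyd, which encodes an enzyme of pyrimidine breakdown, with 1.61% in the sleep-deprived library, 1.41% by ACE-seq and 1.51% in the DDD-seq control. The level of Wwox and Fhit thus had its like at this lower end. Ralyl differed by 0.27 ± 0.11 points and Il1rapl1 by 0.24 ± 0.16 between the sleep-deprived and the DDD-seq control library. The list was written with results of these data known.

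Relatives of the genes were nearer the middle. Over the 6 of 9 listed relatives with at least 5 bins the median was 1.63% in the sleep-deprived library, 1.596% by ACE-seq and 1.73% in the DDD-seq control, where all genes of that size had 1.53% in the sleep-deprived library, 1.49% by ACE-seq and 1.54% in the DDD-seq control. Csmd2, the paralog of Csmd1 and Csmd3, had 1.72% in the sleep-deprived library, 1.74% by ACE-seq and 1.82% in the DDD-seq control, and Utrn, which encodes the dystrophin relative utrophin, 1.91% in the sleep-deprived library, 1.73% by ACE-seq and 1.96% in the DDD-seq control. The highest was Immp1l, the partner subunit of Immp2l, with 2.57% in the sleep-deprived library, 2.305% by ACE-seq and 2.44% in the DDD-seq control over 7 bins. The lowest were Lrp1, with 1.37% in the sleep-deprived library, 1.2504% by ACE-seq and 1.203% in the DDD-seq control, and Lrp2, with 1.16% in the sleep-deprived library, 1.2502% by ACE-seq and 1.36% in the DDD-seq control. Utrn was past 0.2 points in the ACE-seq comparison, with -0.24 ± 0.11.

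Among genes of the complex that dystrophin joins, 12 of 16 had at least 5 bins, with a median of 1.64% in the sleep-deprived library, 1.54% by ACE-seq and 1.59% in the DDD-seq control. Dtna, which encodes the dystrobrevin that binds dystrophin, was the highest with 3.401% in the sleep-deprived library, 3.52% by ACE-seq and 3.64% in the DDD-seq control and was past the difference threshold between the sleep-deprived and the DDD-seq control library, with -0.24 ± 0.15 points. The lowest was Sntg1, a syntrophin gene, with 1.14% in the sleep-deprived library, 1.15% by ACE-seq and 1.197% in the DDD-seq control. Genes under 20 bins have no background here; Sntb2 had a sleep-deprived minus control difference of 0.24 ± 0.20 and Sgce an ACE-seq minus DDD-seq difference of 0.20 ± 0.11. Hint1, Hint2, Sgca, Sgcb and Sspn, all under 5 bins, were past 0.2 points as well.

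The tissue label was read against marker genes of at least 5 bins, whose 5hmC level is not their expression. The median over the libraries was 3.54 to 3.65% (4 of 10 genes) for granule cell genes, 1.34 to 1.39% (3 of 6 genes) for Purkinje cell genes, 2.02 to 2.09% (2 of 5 genes) for oligodendrocyte genes and 1.46 to 1.56% (3 of 5 genes) for Bergmann glia and astrocyte genes. It was 1.73 to 2.11% (1 of 3 genes) for microglia, 1.16 to 1.26% (3 of 4 genes) for endothelium and 1.19 to 1.22% (3 of 5 genes) for muscle genes. All genes of that size had medians of 1.49 to 1.54%. These medians depend on the shorter markers being left out: over all 10 granule cell genes, the most numerous cells of the cerebellum, the median was 1.59% in the sleep-deprived library, 1.78% by ACE-seq and 1.61% in the DDD-seq control. Over all 5 oligodendrocyte genes it was 1.14% in the sleep-deprived library, 1.295% by ACE-seq and 1.23% in the DDD-seq control, and over all 3 microglia genes 1.24% in the sleep-deprived library, 1.0498% by ACE-seq and 1.22% in the DDD-seq control. All genes with a value had medians of 1.31% in the sleep-deprived library, 1.29% by ACE-seq and 1.33% in the DDD-seq control.

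Among genes of at least 50 bins, those near in their body and flank levels over the 3 libraries (Euclidean distance in points) were Frmpd4 (distance 0.131) and Edil3 (0.164) for Wwox, Adgrv1 (distance 0.1097) and Grid1 (0.136) for Fhit and Prkce (distance 0.218) and Fam155a (0.232) for Macrod2. For Immp2l they were Nav2 (distance 0.1296) and Sema6d (0.148), for Lrp1b Ptprk (distance 0.193) and Nrg3 (0.264) and for Dmd Dcc (distance 0.1396) and Schip1 (0.262). Csmd1 was nearest to Kcnq5 (distance 0.136) and Sox5 (0.1397). For Csmd3, Auts2 lay at a distance of 0.417.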

How the data were processed

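Genomic DNA of mouse cerebellum was measured in 3 libraries, 1 per group. The deposited table gives a fraction for each library in 10 kb bins. The submitters' processing notes list the tools Bismark, Trimmomatic and FastQC and the human build hg19, and the file headers carry the words trim, srtn, merged and hapinfo. How the fraction was averaged, the cytosine context and any coverage filter are not given in the sources used here. No counts or coverage are in the table, so depth and precision per bin are unknown, and unconverted cytosines raise the level by an unknown amount. The bins span mouse chromosomes, and the last bin of each of 21 chromosomes ended 1.33 to 212 kb after the last gene of RefSeq GRCm38.p6, which was therefore used. Coordinates are those of that build, counted from 1.

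Fractions were multiplied by 100. A gene's level is the mean over the bins it overlaps by at least 1 bp with a value in all libraries, and flanks are 100 kb of bins on each side. Differences were taken bin by bin. Calls were 0.2 points, an excess of body over flank of 25%, and 0.5 points for windows and for the parts of a gene, without p-values. Python 3.11.15, numpy 2.4.6 and pandas 2.3.3 were used. Known differences were added to real gene bodies, and the mean sleep-deprived minus control difference gave them back. A mean does so by construction, and the other measures were not checked in this way. Named genes were the 8 members, overlapping genes, the nearest 2 genes of each, and from each list the highest, the lowest and any past the threshold; some genes that this rule names are not reported here. Members and lists were chosen with earlier results of these data known. Alternatives tried were other bin rules, flanks, medians, offsets and thresholds.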

Additional observations from a re-analysis of the deposited data

How the results depend on the processing

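No paired analysis was possible because each group has 1 library; for the same reason no library could be left out. The spread was taken as 1 SE over bins. Medians over bins in place of means lowered levels: the median over the 8 genes was then 1.73% in the sleep-deprived library, 1.695% by ACE-seq and 1.71% in the DDD-seq control, and their median body minus flank difference was 0.317 points in the DDD-seq control. With 50 kb flanks that difference was 0.391 points by ACE-seq. Genes of the set at least 25% above their flanks in the DDD-seq control numbered 3 with medians; at a ratio of 1.5 there were 3 after sleep deprivation and 2 in the control, both by DDD-seq. At 0.1 points, 2 of the 8 genes, Lrp1b and Csmd3, were lower by ACE-seq; under every other alternative none of the 8 passed in either comparison.

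Counts over all long genes followed the thresholds. Between the sleep-deprived and the DDD-seq control library, there were 32 higher and 37 lower at 0.2 points, 161 higher and 145 lower at 0.1, 7 higher and 11 lower at 0.3, and 4 higher and 3 lower among genes of at least 50 bins; with medians over bins 53 were higher. Between ACE-seq and the DDD-seq control there were 25 higher and 97 lower at 0.2 points, 102 higher and 341 lower at 0.1, 11 higher and 27 lower at 0.3, 2 higher and 7 lower among genes of at least 50 bins, and 42 higher and 58 lower with the offset between libraries (-0.0434 points on autosomes) subtracted; with medians 39 were higher. A ratio of 1.5 was passed by 272 long genes in the sleep-deprived library, 297 by ACE-seq and 279 in the DDD-seq control. An excess of 25% was passed by 122 genes of at least 50 bins in the sleep-deprived library, 128 by ACE-seq and 126 in the DDD-seq control. Leaving out the highest bin of each gene, a choice made after seeing the data, moved no level by more than 1 SE. The alternatives change which bins or genes are counted; beyond that the cause was not tested.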
